A study of Mus musculus with 9 samples.

Results

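The AP-1 factors of the Fos, Jun and Batf families were followed through RANKL-induced osteoclast differentiation of RAW264.7 cells, a mouse macrophage cell line, with and without uridine (UD). The 9 genes Fos, Fosb, Fosl1, Fosl2, Jun, Junb, Jund, Batf and Batf3 were picked by their symbol among the 56691 genes of the deposited table. Libraries were made from RNA of cells cultured for 3 days, with 3 libraries in each of 3 groups, namely untreated cells (control), cells given RANKL, and cells given RANKL together with UD (RANKL + UD). The cells are 1 cell line, the libraries are poly(A)-selected, and the UD dose of these libraries is not given in the sources used here. The labels call the samples of a group replicate biosamples without saying whether they came from separate cultures, so p-values measure the spread between these samples, which may be technical. Library totals ranged from 15951800 to 19746862 counts.

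AP-1 is a family of transcription factor dimers. Fos proteins cannot pair with each other and need a Jun partner, whereas Jun proteins can also pair among themselves. Batf and Batf3 pair with Jun proteins, lack the activating domains of Fos, and often bind together with IRF4 or IRF8. In the osteoclast lineage, RANKL signals through MAP kinases to AP-1, and Fos is required for osteoclasts to form. Fos also acts with NFATc1 on the promoters of resorption genes. Many members are also immediate early genes, whose transcripts appear within minutes of a stimulus and are short-lived.

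The labelled cells were checked against marker genes. All 7 macrophage markers (Adgre1, Cd68, Csf1r, Lyz2, Ptprc, Itgam and Spi1) were expressed, and their summed FPKM was 8954 to 9553 in control, where RANKL libraries had 2492 to 2728 and RANKL + UD libraries 2164 to 2301. FPKM is a read count divided by exonic length and library total. The 9 osteoclast markers summed to 46.9 to 50.1 in control, where RANKL libraries had 2641 to 2844 and RANKL + UD libraries 1666 to 1703. Ctsk was the largest part of this sum in libraries with RANKL, at 1443 to 1573 without UD and 854 to 897 with UD. Calcr, at 0 to 0.49, stayed under the expression filter, and Itgb3 reached at most 1.75. Markers of fibroblasts and osteoblasts (6 genes), T and B cells (6 genes) and epithelial and endothelial cells (6 genes) summed to at most 0.95, 0.29 and 0.4 in any library, and 0 of these 18 genes passed the expression filter. Most of the macrophage sum was Lyz2, with 7818 to 8299 in control and 1357 to 1521 with RANKL, and the list did not move as a whole. Mean FPKM was lower with RANKL than in control for Lyz2, Adgre1, Csf1r, Ptprc and Itgam, and it was above control for Cd68 (782 against 549) and Spi1 (120.9 against 82.6). The part of these markers in the results for AP-1 was not tested. In these bulk samples, fewer cells of a type and less RNA per cell cannot be told apart.

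The start of transcription is shown for 4 genes on which the results turn, Fos and Jun (lower after RANKL), Fosl2 (higher after RANKL) and Junb (lower with UD). Each line is the 150 bases just before the RefSeq start in GRCm38.p6, on the strand of the gene, with capitals for matches to TGANTCA or TGANNTCA (forms of the AP-1 site) or TGACG (the core of the cAMP response element), searched on both strands, and to TATAAA (the TATA box) on the strand of the gene. Fos lies at chr12:85473740-85473889 (plus strand), Jun at chr4:95052223-95052372 (minus), Junb at chr8:84978749-84978898 (minus) and Fosl2 at chr5:32136322-32136471 (plus).
Fos: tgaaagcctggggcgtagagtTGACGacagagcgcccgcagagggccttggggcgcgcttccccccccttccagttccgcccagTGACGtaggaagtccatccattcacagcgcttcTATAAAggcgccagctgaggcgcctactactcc
Jun: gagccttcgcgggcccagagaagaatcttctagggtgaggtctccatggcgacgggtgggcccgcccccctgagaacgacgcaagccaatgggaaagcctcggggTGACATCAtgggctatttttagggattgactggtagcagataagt
Junb: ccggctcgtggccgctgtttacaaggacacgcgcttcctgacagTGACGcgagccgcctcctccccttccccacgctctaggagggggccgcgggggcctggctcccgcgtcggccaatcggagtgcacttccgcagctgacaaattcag
Fosl2: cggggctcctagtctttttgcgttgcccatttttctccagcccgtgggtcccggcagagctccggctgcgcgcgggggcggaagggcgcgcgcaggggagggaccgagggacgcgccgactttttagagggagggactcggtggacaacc

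Over the 250 bases searched upstream of the start, Fos held TGACG from positions -129 and -66 relative to the start and TATAAA from -33, while Jun held TGACATCA from -45. Junb held TGACG from -106. Fosl2 held no match in this window. Of the members not printed, Fosb held TGACG from -60, Jund TGAAATCA from -61 and Batf TGACG from -98, while Batf3 held no match. For Fosb, on the minus strand, the start used was 19310045, while its RefSeq gene begins at 19310118. Its match therefore lies inside the RefSeq gene. A relation between matches and expression was not tested. Of the 32851 RefSeq promoters, 17.8% held TGACG, 11.9% TGANNTCA, 6.75% TGANTCA and 7.59% TATAAA in the same window. RefSeq entries matched 8 of the 9 genes, all but Fosl1. A match is a stretch of letters and not a measured binding site.

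In FPKM, the only scale here on which different genes can be set side by side, the make-up of AP-1 transcripts differed between the groups. Control cells were rich in Fos, which held 55.6% to 60.1% of the summed FPKM of the 9 genes, whereas Fosl2 held 1.27% to 1.70%. With RANKL, Fosl2 was the most abundant member at 34.2% to 38.5%, and Fos held 19.1% to 20.98%. With RANKL + UD, Fosl2 held 43.6% to 46.0% and Fos held 14.1% to 15.4%. The FPKM of Fos was 35.4 to 43.7 times that of Fosl2 in the control libraries, and that of Fosl2 was 1.63 to 2.02 times that of Fos with RANKL and 2.95 to 3.08 times with RANKL + UD. No library of one group lay in the range of another for this ratio. The summed FPKM of all 9 genes was 316.4 to 357.7 in control, 173.1 to 185.4 with RANKL and 145.9 to 148.1 with RANKL + UD. The Fos family held 61.0% to 66.4% of that sum in control, 54.4% to 57.9% with RANKL and 58.0% to 61.8% with RANKL + UD. For RANKL against control, the direction of the family share depended on the scale. Raw counts weight the long Fosl2 transcript more. By raw counts, the Fos family had a mean share of 67.2% in control libraries, 79.9% after RANKL and 83.5% when UD was added. The 9 genes summed to means of 15699, 17198 and 14610 raw counts in the same groups. These sums are not adjusted for library totals, which were 15951800 to 19746862 in control and 19182637 to 19705724 with RANKL, so they are not compared between groups.

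**Figure D1:**
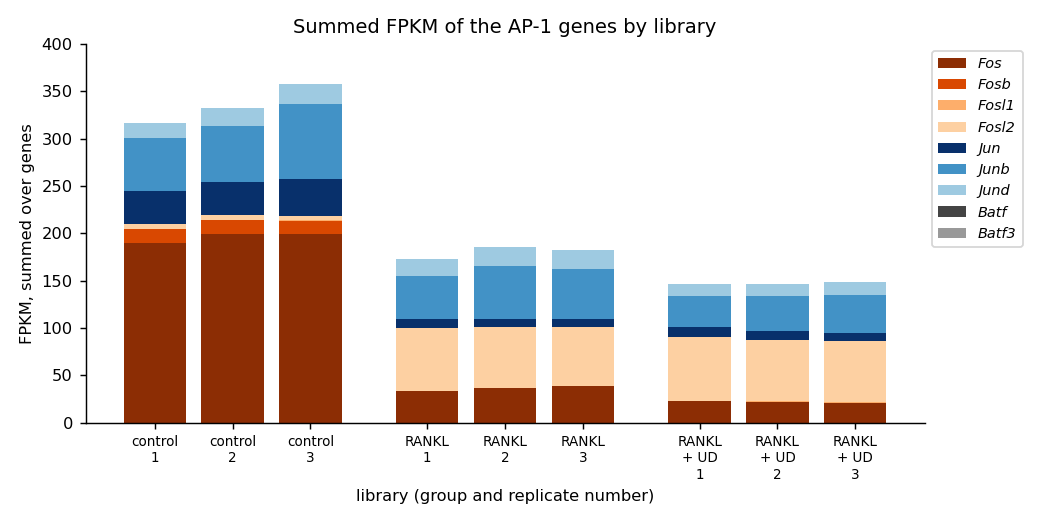
Stacked bars of the summed FPKM (vertical axis, from 0) of the AP-1 genes in each of the 9 libraries (horizontal axis, grouped as control, RANKL and RANKL + UD), with a colour for each gene. Fos fills at least 55.6% of each control bar, and Fosl2 is the tallest block in each RANKL and RANKL + UD bar.

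The order of mean FPKM in control was Fos, Junb, Jun, Jund, Fosb, Fosl2, Fosl1, Batf and Batf3, and only Batf and Batf3 overlapped among neighbours. With RANKL the order was Fosl2, Junb, Fos, Jund, Jun, Fosl1, Fosb, Batf and Batf3, and again only Batf and Batf3 overlapped. The order with RANKL + UD was that of RANKL, with Fosb, Batf and Batf3 at the bottom and overlapping each other. Among the Jun genes, the FPKM of Junb was 1.62 to 2.04 times that of Jun in control, 5.16 to 6.39 times with RANKL and 2.82 to 4.74 times with RANKL + UD.

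**Figure D2:**
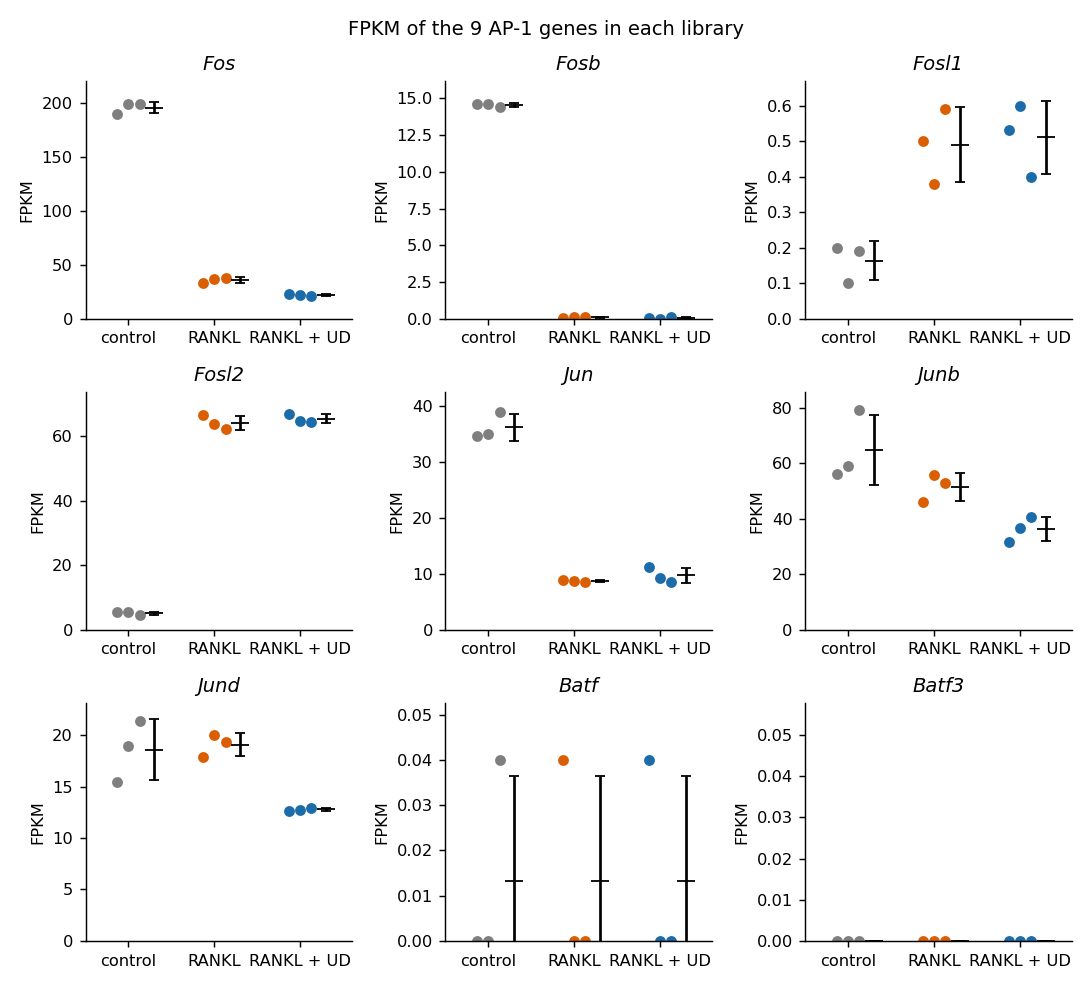
FPKM (vertical axes, each from 0 and each with its own scale) of the 9 AP-1 genes in control, RANKL and RANKL + UD. Points are libraries, and the black bars are the mean ± SD of 3 libraries. Fos, Fosb and Jun are high in control, Fosl2 is high in both RANKL groups, and Fos, Junb and Jund are lower with RANKL + UD than with RANKL.

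The question of the first comparison was how AP-1 transcripts differ between cells given RANKL and untreated cells. Of the 9 genes, 6 were tested, since a gene had to reach an FPKM of 1 in 3 or more libraries, and Fosb passed this filter through its control libraries alone. The quasi-likelihood test of edgeR was used, with p-values adjusted over all tested genes (Benjamini-Hochberg) and a threshold of 0.05. By this test 1 was higher (Fosl2), 4 were lower (Fos, Fosb, Jun and Junb) and 1 did not pass (Jund). Of the 11995 genes tested, 57.6% passed in this comparison, 27.3% as higher and 30.2% as lower. The libraries of the 2 groups did not overlap in FPKM for 5 of the 6 genes, all but Jund, and for 61.7% of all tested genes. The median log2 fold change of the 6 tested genes was -1.10, beside -0.03 over all tested genes. Fosb, tested only through the group where it is high, enters these counts and this median, so they are no support for a direction. When libraries were scaled by their totals alone rather than by TMM, the median over all tested genes was -0.11 here and 0.09 for RANKL + UD against RANKL. The share of higher genes among those past the threshold then went from 47.5% to 36.9% here and from 48.0% to 66.2% for RANKL + UD against RANKL.

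Fos (ENSMUSG00000021250, chromosome 12, 85520664 to 85524047 in the deposited table) had an FPKM of 190.1, 198.9 and 198.9 in the control libraries, 33.05, 36.5 and 38.2 with RANKL, and 22.45, 22.0 and 20.92 with RANKL + UD. The 3 groups did not overlap, and each library with RANKL lay far below control. RANKL against control gave a log2 fold change of -2.36 (SE 0.055, edgeR adjusted p = 7.95e-19), which is 5.14-fold lower. It was lower under every one of the 18 alternatives, between -2.45 and -2.31.

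Fosb (ENSMUSG00000003545, chromosome 7, 19036621 to 19043976) is a close relative of Fos and an immediate early gene as well. It had 1536, 1806 and 1437 counts in the control libraries, 6, 11 and 13 with RANKL, and 6, 0 and 10 with RANKL + UD. In FPKM it stood at 14.6 ± 0.117 in control and 0.0833 ± 0.0306 with RANKL (SD, n = 3 each). Its log2 fold change against control was -7.36 with RANKL (95% interval -7.76 to -6.96), the largest of the 6. Limma on log2(FPKM + 1) gave -3.84, because the added 1 exceeds the levels with RANKL.

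Fosl2 (ENSMUSG00000029135, chromosome 5, 32293145 to 32315186) encodes FRA-2, a Fos protein without a strong activating domain. Its FPKM was 5.37, 5.51 and 4.55 in control, 66.7, 63.9 and 62.2 with RANKL, and 67.1, 64.8 and 64.5 with RANKL + UD. Every library with RANKL, with or without UD, stood above every control library, and the groups with RANKL overlapped each other. The log2 fold change of RANKL against control was 3.73 (SE 0.064, edgeR adjusted p = 6.59e-21), or 13.2-fold higher, and it lay between 3.41 and 3.78 over all settings. It was the only tested member that passed the threshold as higher in the main fit.

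Jun (ENSMUSG00000052684, chromosome 4, 94937271 to 94940459), the founding Jun gene, had an FPKM of 34.6, 34.9 and 38.9 in control, 8.91, 8.73 and 8.47 with RANKL, and 11.3, 9.32 and 8.57 with RANKL + UD. Control libraries were all above the rest. RANKL against control gave -1.97 on the log2 scale (SE 0.084, edgeR adjusted p = 1.81e-14), or 3.91-fold lower. Jun overlaps Junos on the opposite strand by 689 bases, and the highest FPKM of Junos was 0.79. The part of this overlap in the Jun counts was not tested.

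Junb (ENSMUSG00000052837, chromosome 8, 85701113 to 85705347), which can oppose Jun on some promoters, had an FPKM of 56.1, 59.1 and 79.2 in control and 46.0, 55.7 and 53.1 with RANKL. The groups did not overlap, but the highest RANKL library was only just below the lowest control library, and control replicate 3 stood well above the other two. The log2 fold change was -0.24 (95% interval -0.45 to -0.03, edgeR adjusted p = 0.0481). This call was lost under 10 of 18 alternatives, among them DESeq2 (adjusted p = 0.254, against 0.000682 to 0.454 over all settings), and without control replicate 3 the log2 fold change was -0.07.

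Jund (ENSMUSG00000071076, chromosome 8, 71151599 to 71153265), a Jun gene with a steadier expression than its relatives in most cells, had an FPKM of 15.5, 18.9 and 21.4 in control and 17.9, 20.1 and 19.3 with RANKL. The RANKL libraries lay inside the range of control, and the log2 fold change of 0.13 did not pass the test (95% interval -0.08 to 0.33, edgeR adjusted p = 0.281). Without control replicate 3 it passed, at 0.23 (edgeR adjusted p = 0.042, against 0.042 to 0.909 over all settings).

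Fosl1 (ENSMUSG00000024912, chromosome 19, 5497575 to 5505974), which encodes FRA-1, stayed under the filter. It had 7, 4 and 6 counts in control, 20, 15 and 23 with RANKL, and 21, 20 and 14 with RANKL + UD, so all libraries with RANKL were above control at a very low level. Without a filter on expression its log2 fold change of RANKL against control was 1.69 (95% interval 0.63 to 2.75, edgeR adjusted p = 0.00782). Fosl1 overlaps Ccdc85b on the opposite strand by 2767 bases. Ccdc85b ranged from 1.13 to 1.37 FPKM in control, from 0.65 to 1.01 with RANKL and from 0.57 to 0.9 with RANKL + UD. The part of this overlap in the Fosl1 counts was not tested, and these few counts are uncertain.

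Batf (ENSMUSG00000034266, chromosome 12, 85733443 to 85755861) had 1 count in each of 3 libraries, 1 of each group, and 0 counts in the others. Batf3 (ENSMUSG00000026630, chromosome 1, 190830044 to 190841142) had 0 counts in all 9 libraries. A count of 0 allows up to 3 counts, which is 0.152 to 0.188 CPM (the count scaled by the library total) in these libraries and covers counting error only. Neither gene could be compared between the groups at this depth.

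The question of the second comparison was how UD changes AP-1 transcripts in cells that also receive RANKL. Of the 6 tested genes, 0 were higher, 3 were lower (Fos, Junb and Jund) and 3 did not pass (Fosb, Fosl2 and Jun) by the same test. No gene among the 6 was higher at an unadjusted p under 0.05 either (0 genes), and DESeq2 also called 0 higher. Over all genes tested, 38.8% passed, 18.6% as higher and 20.2% as lower. The 2 groups did not overlap in FPKM for Fos, Junb and Jund, nor for 51.7% of all tested genes. The median log2 fold change of the 6 genes was -0.63, beside 0.005 over all tested genes.

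Fos was 1.75-fold lower with RANKL + UD than with RANKL. The 3 libraries with UD, at 20.9 to 22.4 FPKM, were below the 3 without, at 33.05 to 38.2. The log2 fold change was -0.81 (SE 0.058, edgeR adjusted p = 1.08e-09), and over all settings it lay between -0.86 and -0.69. The direction was that of RANKL against control, so Fos with RANKL + UD stood 8.98-fold below control.

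Jund had an FPKM of 12.7, 12.8 and 12.9 with RANKL + UD, against 17.9 to 20.1 with RANKL. These 3 libraries were close to each other and below every library of the other groups. The log2 fold change was -0.66 (SE 0.101, edgeR adjusted p = 2.28e-05), or 1.58-fold lower. Jund had not moved past the threshold with RANKL alone, and it was 1.45-fold lower than control with RANKL + UD (edgeR adjusted p = 0.000131).

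Junb had an FPKM of 31.8, 36.7 and 40.7 with RANKL + UD, against 46.0 to 55.7 with RANKL. The groups did not overlap. The log2 fold change was -0.59 (SE 0.104, edgeR adjusted p = 0.00011), or 1.51-fold lower, and it was 1.78-fold lower than control. Junb overlaps Prdx2, a peroxiredoxin gene, on the opposite strand by 351 bases, and Prdx2 ranged from 39.3 to 40.5 FPKM in control libraries, from 57.45 to 61.2 after RANKL and from 58.8 to 60.1 when UD was added. The part of this overlap in the Junb counts was not tested, since the use of strand in counting is not given in the sources used here.

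No difference with UD was detected for Fosl2, Jun or Fosb. For Fosl2 the log2 fold change was -0.06 (95% interval -0.17 to 0.06, edgeR adjusted p = 0.435), and the libraries of the 2 groups overlapped. The interval excludes a fall as large as that of Fos, Junb or Jund. For Jun the log2 fold change was 0.08 (95% interval -0.11 to 0.26, edgeR adjusted p = 0.53). The RANKL + UD libraries of Jun spread from 8.57 to 11.3 FPKM, and without replicate 1 the log2 fold change was -0.05. For Fosb the interval was too wide to place the change, at -0.85 (95% interval -1.93 to 0.23), since few counts remained in either group. For Fosl1, under the filter, it was -0.03 (95% interval -0.95 to 0.89 without a filter).

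**Figure D3:**
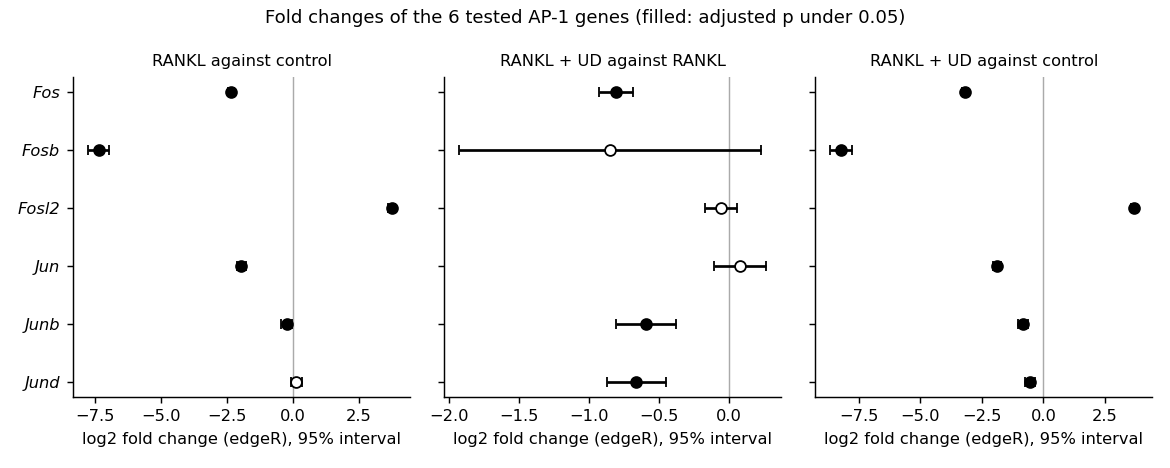
Log2 fold changes from edgeR (points) with 95% intervals (bars) of the 6 tested AP-1 genes in the 3 comparisons, where filled points have an adjusted p under 0.05 and each panel has its own horizontal scale. In RANKL + UD against RANKL, Fos (-0.81), Junb (-0.59) and Jund (-0.66) lie left of 0, and the intervals of Fosl2, Jun and Fosb include 0.

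Against control, RANKL + UD left 1 of the 6 genes higher (Fosl2, log2 fold change 3.67) and 5 lower (Fos -3.17, Fosb -8.21, Jun -1.89, Junb -0.83 and Jund -0.54), where 54.0% of all genes tested passed, 26.7% as higher and 27.3% as lower, and 59.9% did not overlap in FPKM between the groups. This comparison shares its control libraries with the first and its RANKL + UD libraries with the second. Fosb was tested only through its control libraries here too, so the counts are no support for a direction.

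For each tested member, the 3 genes most like it were found by the root mean square difference of log2 CPM over the 9 libraries, each gene centred on its own mean. The measure is in log2 units, and the groups set most of it. For Fos they were Rcbtb2 (0.065), Nedd9 (0.162) and Itgb5 (0.193), where Fos itself varied by 1.34. The mean FPKM of Rcbtb2 was 16.01 in control and 3.08 and 1.86 without and with UD in the presence of RANKL. For Fosl2 they were Ccr1 (0.114), a chemokine receptor gene with a mean FPKM of 5.64, 82.4 and 72.2 in the same groups, Slc12a5 (0.155) and Epn2 (0.206), where Fosl2 varied by 1.75. For Jun they were Lpar6 (0.0861), Phf11d (0.108) and Tlr2 (0.114), where Jun varied by 0.917. Tlr2, the gene of a receptor for bacterial lipoproteins, had a mean FPKM of 159.3 in untreated cells, 35.9 after RANKL and 43.7 when UD was added. For Junb they were Kiz (0.108), Rhoc (0.109) and Blvrb (0.11), and for Jund Irf2bpl (0.0894), Wipi2 (0.0915) and Atg2a (0.0941), where Junb varied by 0.383 and Jund by 0.306. For Fosb they were Cmah (1.17), Cbr2 (1.24) and Hpgd (1.25), where Fosb varied by 3.695. These distances include libraries in which Fosb had 0 to 13 counts.

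Transcription factors that pair with AP-1 proteins, or bind beside them, were read next. Of 13 bZIP and IRF partner genes, 11 were tested, and with RANKL 4 were higher and 4 were lower (27.3% and 30.2% of all tested genes), with a median log2 fold change of 0.02. Jdp2, which pairs with Jun proteins and represses AP-1 sites, rose from a mean FPKM of 14.8 to 122.5 (log2 fold change 3.14). Irf8, a brake on osteoclast formation and a Batf partner, fell by 2.02 on the log2 scale and Atf3, a stress-induced factor, by 0.99.

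With RANKL + UD against RANKL, 8 of these 11 partner genes were lower and 0 were higher by edgeR (20.2% and 18.6% of all tested genes), with a median of -0.48. No partner gene was higher at an unadjusted p under 0.05 in this fit (0 genes), or by DESeq2 (0 genes). When libraries were scaled by their totals alone, 1 was higher and 7 were lower at an unadjusted p under 0.05. Atf3 went from a mean FPKM of 18.9 to 4.52 (log2 fold change -2.16), the largest change of the list. Irf4 fell by 1.07 and Maff by 0.62 on the log2 scale. Jdp2 had a mean FPKM of 111.0 with UD against 122.5 without and fell by 0.23 on the log2 scale (edgeR adjusted p = 0.0019).

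Among 25 upstream kinases and regulators, from the RANK receptor to the factors that act on the Fos promoter and the ligases that degrade Jun, 23 were tested. With RANKL, 9 were higher and 7 were lower (27.3% and 30.2% of all tested genes), with a median log2 fold change of 0.03. Tnfrsf11a, which encodes RANK, rose by 0.92 (mean FPKM 17.4 in control and 30.9 with RANKL), Map2k3 by 0.80 and Map2k1, the gene of the ERK kinase MEK1, by 0.57, while Mapk14, the gene of p38 alpha, fell by 0.83. With RANKL + UD against RANKL, 3 were higher and 3 were lower (18.6% and 20.2% of all tested genes) and 17 did not pass. The lower genes were Mapk3, which encodes ERK1 (log2 fold change -0.52), Tnfrsf11a (-0.35) and Map2k1 (-0.33). Elk3, a ternary complex factor, rose by 0.38, and the others that were higher, named after their values were seen, were Map3k7 (0.18) and Mapk9 (0.18). When scaled by library totals alone, 11 of the list were higher.

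A further 12 immediate early genes outside the AP-1 families were all tested. With RANKL against control 8 were lower and 2 were higher (30.2% and 27.3% of all tested genes), with a median log2 fold change of -1.47. Dusp1, a MAP kinase phosphatase gene, fell by 3.16 on the log2 scale (mean FPKM 31.3 in control and 3.30 with RANKL), Egr1 by 3.11 and Btg2 by 2.07. Myc went the other way, from a mean FPKM of 0.767 to 36.2 (log2 fold change 5.65), and it passed the filter only through libraries with RANKL. With RANKL + UD against RANKL, 6 were lower and 1 was higher (20.2% and 18.6% of all tested genes), with a median of -0.41. Myc fell by 1.46, Egr2 by 1.13, Dusp1 by 0.93 and Zfp36, which marks short-lived transcripts for decay, by 0.71. The higher gene, named after its values were seen, was Btg2 at 0.26 (edgeR adjusted p = 0.0436, lost with DESeq2).

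Finally, 17 genes known as targets of AP-1 were listed, 10 of which are not in the list of osteoclast markers used above, and 14 were tested. With RANKL 10 were higher and 3 were lower (27.3% and 30.2% of all tested genes), with a median log2 fold change of 2.20. Mmp9, the gelatinase gene, rose by 9.59, Acp5, which encodes TRAP, by 8.91, Oscar, a costimulatory receptor gene with 0, 7 and 0 counts in control, by 8.27 and Ctsk, which encodes cathepsin K, by 7.57 on the log2 scale. Of the 14, Mmp9, Acp5, Oscar and Itgb3 were tested only because libraries with RANKL reached the filter, and Itgb3 reached it in the 3 libraries with RANKL alone, so the counts of the list are no support for its direction. With RANKL + UD against RANKL 13 of the 14 were lower and 1 was higher (20.2% and 18.6% of all tested genes), with a median of -0.73. Itgb3 is among the lower genes and was tested only through the group where it is high, so its call is no support for the direction. Oscar fell by 1.53, Mmp9 by 1.34, Hmox1, the heme oxygenase gene, by 1.11 and Itgb3, the integrin beta 3 gene, by 1.07. The higher gene, named after its values were seen, was Ccnd1, which encodes cyclin D1, at 0.41. Calcr, Timp1 and Ifnb1 stayed under the filter, and Ifnb1 had 0 counts in every library.

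**Figure D4:**
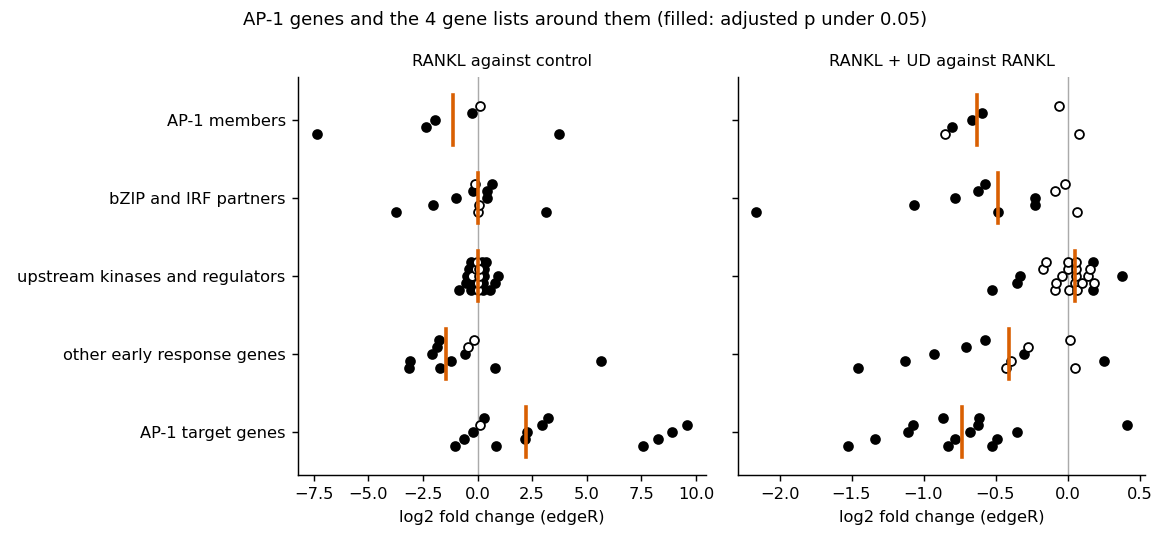
Log2 fold changes from edgeR (horizontal axes, each with its own scale) of the tested AP-1 genes and of 4 lists of related genes, for RANKL against control and for RANKL + UD against RANKL. Each point is a gene, filled where the adjusted p is under 0.05, the vertical offset within a list has no meaning, and orange bars are list medians. In RANKL + UD against RANKL, 13 of 14 AP-1 target genes lie left of 0 and the upstream kinases centre near 0. Among the 13 is Itgb3, which was tested only through the libraries with RANKL alone.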

How the data were processed

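Reads per gene were taken as the raw counts the authors deposited, which are whole numbers without normalization. The FPKM values were also deposited by the authors with 2 decimals, and 100% of them in each of the 9 libraries could be recomputed from the counts, the exonic gene sizes and the library totals (within 0.0051). The aligner, the counting tool, the annotation and the use of strand in counting are not given in the sources used here. Per the labels the build is mm10, but 0 of 9 AP-1 genes and 1435 of 52073 shared genes have their GRCm38 (GENCODE M21) coordinates in the table, so its coordinates are printed without a build. One set of columns is named Model, the study's word for the group its sequencing set against uridine, and was read as the RANKL samples, the other names matching the other groups. No gene identifier or symbol is blank (0 of each).

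A gene was tested if its FPKM reached 1 in 3 or more libraries (11995 of 56691 genes). Counts were scaled by TMM and tested with edgeR 4.0.16 in R 4.3.3 (quasi-likelihood test, all 9 libraries in one fit, Benjamini-Hochberg adjustment over all tested genes), with an adjusted p under 0.05 as the threshold. Standard errors are the fold change divided by the square root of F. DESeq2 1.42.0, which the study names, limma 3.58.1 on log2(FPKM + 1) and on log2(FPKM + 0.1), RLE scaling, total counts, other filters, a fit to 6 libraries only, a block for replicate number and leaving out each library were alternatives. The pipeline was tested on simulated data. Promoter sequences are those of RefSeq (GRCm38.p6). Figures were drawn in Python 3.11.15 with matplotlib 3.10.9.

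The AP-1 genes and the gene lists were chosen with earlier results of these data known. Genes named from the lists are up to 4 of each with the largest change past the threshold in RANKL against control and up to 4 in RANKL + UD against RANKL, and 3 genes are named for each tested AP-1 gene by the likeness of their pattern. Genes named outside this rule were chosen after their values were seen and are marked so. The values of 1 gene that this rule names are not reported here.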

Additional observations from a re-analysis of the deposited data

How the results depend on the processing

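Each fold change of a tested AP-1 gene was recomputed under 18 alternatives, as were the counts for the AP-1 genes and the 4 lists. Past the threshold in RANKL + UD against RANKL, Fos, Junb and Jund stayed lower under all 18, and in RANKL against control Fos, Fosb, Jun and Fosl2 kept their calls under all 18. The call of Junb against control did not hold, as given above. Fosl1 enters without a filter on expression or with edgeR's filterByExpr, which makes the number of higher AP-1 genes 2 in place of 1 both for RANKL against control and for RANKL + UD against control. Leaving out 1 library at a time gave 1 to 2 higher AP-1 genes for RANKL against control (2 without control replicate 3, with Jund), and 3 to 4 lower ones for RANKL + UD against RANKL, where the fourth, without RANKL + UD replicate 3, was Fosb (log2 fold change -1.67, edgeR adjusted p = 0.0431, against 0.0431 to 0.647 over all settings). For the early response genes it gave 1 to 2 higher genes for RANKL against control (1 without control replicate 2), 0 to 1 for RANKL + UD against RANKL (0 without control replicate 2, RANKL replicate 1 or 2, or RANKL + UD replicate 1 or 3) and 1 to 2 for RANKL + UD against control (2 without control replicate 3 or RANKL + UD replicate 1). The higher early response genes for RANKL + UD against RANKL numbered 0 with DESeq2, with RLE size factors, without a filter and with the 6 libraries of the comparison, and 1 gene had an unadjusted p under 0.05 in each of these. The higher upstream genes in that comparison numbered 11 with total counts, 7 with limma on log2(FPKM + 1) and 6 on log2(FPKM + 0.1), and the scaling shift given above has the same direction. Below the threshold throughout, Fosl2 changed sign for RANKL + UD against RANKL, with 0.0276 by total counts, 0.0275 by limma on log2(FPKM + 1) and 0.0279 on log2(FPKM + 0.1), and Jun ranged from -0.0506 to 0.163 when a library was left out. As shares of raw counts, which favour long genes, Fos was 51.4% in control and Fosl2 70.2% with RANKL and 77.1% with RANKL + UD.

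Deviations from the group means had correlations across genes of -0.0194 to 0.0984 between samples with the same replicate number. Between samples with different numbers they were -0.102 to 0.0464. Such small values cannot decide whether the number pairs samples, and the main fit did not use it. With the replicate block, RANKL + UD against RANKL had 2347 higher and 2518 lower genes, 0 higher and 3 lower AP-1 genes, and no call of an AP-1 gene changed in any comparison.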

Other observations

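The lists around AP-1 were also read for RANKL + UD against control. Of the 11 tested partner genes, 1 was higher, Jdp2 (log2 fold change 2.91), and 6 were lower, among them Atf3 (-3.15), Irf8 (-2.51) and Irf4 (-0.63), by edgeR's quasi-likelihood test, where 26.7% of all tested genes were higher and 27.3% lower. Atf4, which encodes an amino acid and stress response factor and was named after its values were seen, was higher with RANKL than in control (mean FPKM 145.3 against 114.4) and had 103.7 with RANKL + UD, where the difference from control was small (log2 fold change -0.14, edgeR adjusted p = 0.0161) and did not pass without the expression filter (edgeR adjusted p = 0.0732). Of the 12 early response genes, 10 were lower and 1 was higher than control (27.3% and 26.7% of all tested genes), with Dusp1 at -4.09, Egr1 at -3.41, Zfp36 at -2.57 and Myc at 4.196. Nr4a1, named after its values were seen, did not pass in RANKL against control or in RANKL + UD against RANKL and was lower in RANKL + UD than in control (-0.85, edgeR adjusted p = 0.00084).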
